A study of Mus musculus with 2 samples.

Results

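Caveolae genes and *Plvap* were followed through 87 single PK44 cells of the mouse yolk sac at embryonic day 10. The genes were *Cav1*, *Cav2*, *Ptrf* (Cavin1), *Sdpr* (Cavin2), *Prkcdbp* (Cavin3) and *Ehd2*, and with *Plvap* they made up 7 of the 23154 genes in the count tables. They were selected on measured values of these same cells, namely their levels, their co-expression and their relation to *Runx1* and *Gja5*, so that all of these are given here as a description, with no test. PK44 cells are endothelial cells sorted as CD41- CD43- CD45- CD31+ CD201+ Kit+ CD44+ from embryos on the C57BL/6 background, a gate made to enrich hemogenic endothelium. There was 1 condition and there were 2 libraries, here replicate 1 with 43 cells and replicate 2 with 44 cells. Neither the labels nor the methods used here say whether both libraries came from separate litters.

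Caveolae are flask-shaped pits of the plasma membrane that are very common in mature endothelium. Caveolins are inserted into the membrane and cavins coat it from the cytosol, while a ring of EHD2 holds the neck. Caveolae buffer stretch of the membrane, carry cargo and gather receptors, and in many endothelia their openings are spanned by a diaphragm of PLVAP. RUNX1 drives the passage of endothelial cells to blood cells, and *Gja5* (connexin 40) marks arterial endothelium.

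The 2 tables held 8932527 counts in replicate 1 and 12706360 in replicate 2, with 13218 to 702028 and 51620 to 956593 counts per cell. The libraries shared 0 cell barcodes. All 9 endothelial markers examined had counts, with a summed level of 2825 CPM (counts scaled to a total of 1e+06) in replicate 1 and 4963 in replicate 2. A total of 3 cells, 2 in replicate 1 and 1 in replicate 2, held 100 or more counts of each of *Col1a1*, *Col1a2*, *Col3a1* and *Lum*, and are called mesenchymal-marker cells here. *Cav1* was at 0, 3.66 and 0 CPM in these cells, and they held at most 11.1% of any member's counts in a library, which was for *Cav2* in replicate 1.

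On GRCm38, *Cav2* (chr6:17281185-17289115) and *Cav1* (chr6:17306335-17341452) lie on the plus strand, with 17219 bases between the end of *Cav2* and the start of *Cav1*. *Sdpr* lies at chr1:51289126-51302960 on the plus strand. The other members lie on the minus strand, *Ptrf* at chr11:100956733-100970887, *Prkcdbp* at chr7:105480083-105482300, *Ehd2* at chr7:15946958-15967567 and *Plvap* at chr8:71497765-71511752. Genes on the opposite strand overlap *Sdpr* (9330175M20Rik), *Prkcdbp* (Gm45667), *Cav1* and *Cav2* (Gm15581) and *Plvap* (Gtpbp3). Whether the counting used the strand is not given in the sources used here, and without it reads from these partners could not be told apart. The overlapping genes with a row of their own had few counts in all, 17 for 9330175M20Rik and 448 for Gtpbp3.

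Promoters are printed for a pair of genes that varied together from different chromosomes, *Sdpr* and *Cav1*, for *Cav2*, the neighbour of *Cav1*, and for *Ptrf*, the member nearest to *Gja5*. Each window runs from 250 bases before to 50 after a RefSeq start site (GRCm38.p6), 5′ to 3′ on the strand of the gene. Capitals mark the CCAAT box, the TATA box letters TATAAA and an ETS-type hexamer spelled AGGAAG. Both strands were searched, so that in *Cav1* a TATA box is printed as its reverse complement TTTATA and the ETS-type hexamer as CTTCCT. RefSeq promoters were found for 5 of the 7 members, and not for *Prkcdbp* or *Plvap*.
*Sdpr* (chr1:51288876-51289175, plus strand): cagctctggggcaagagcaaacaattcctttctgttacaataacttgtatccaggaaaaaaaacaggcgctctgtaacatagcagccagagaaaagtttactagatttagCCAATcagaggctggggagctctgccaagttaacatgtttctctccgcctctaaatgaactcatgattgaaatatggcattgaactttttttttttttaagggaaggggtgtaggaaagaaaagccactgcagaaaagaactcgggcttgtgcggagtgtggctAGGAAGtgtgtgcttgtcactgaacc
*Cav1* (chr6:17306085-17306384, plus strand): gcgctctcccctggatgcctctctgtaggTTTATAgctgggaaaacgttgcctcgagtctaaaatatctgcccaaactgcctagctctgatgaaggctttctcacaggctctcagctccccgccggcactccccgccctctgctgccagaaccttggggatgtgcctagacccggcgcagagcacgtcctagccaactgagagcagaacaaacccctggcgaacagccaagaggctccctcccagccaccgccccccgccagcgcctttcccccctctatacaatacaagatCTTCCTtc
*Cav2* (chr6:17280935-17281234, plus strand): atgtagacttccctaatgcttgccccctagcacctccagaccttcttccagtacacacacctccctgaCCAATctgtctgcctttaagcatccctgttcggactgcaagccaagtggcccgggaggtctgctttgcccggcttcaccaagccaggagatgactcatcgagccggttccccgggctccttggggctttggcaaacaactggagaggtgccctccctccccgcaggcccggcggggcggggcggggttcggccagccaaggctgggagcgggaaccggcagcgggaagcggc
*Ptrf* (chr11:100970568-100970867, minus strand): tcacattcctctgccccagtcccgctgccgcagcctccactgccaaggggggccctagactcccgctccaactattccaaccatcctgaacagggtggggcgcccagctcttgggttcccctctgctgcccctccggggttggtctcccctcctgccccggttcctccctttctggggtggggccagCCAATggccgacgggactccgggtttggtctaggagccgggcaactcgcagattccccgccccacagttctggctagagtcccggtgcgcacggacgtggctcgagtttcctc

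CCAAT stood in the windows of *Sdpr*, *Ptrf*, *Cav2* and *Ehd2*, 140, 63, 182 and 160 bases before the start, and in neither of the 2 *Cav1* windows. Among all 32851 promoters compared, 37.4% held it on either strand. AGGAAG stood 24 bases after the start in *Sdpr* and 42 bases after it in the first *Cav1* window, and in 35.4% of all promoters. *Cav1* alone among these members had a TATAAA, 221 bases before the start on the other strand, against 13.6% of all promoters. The RUNX hexamer TGTGGT was in 1 member window, that of the second *Cav1* start, and in 16.8% of all promoters. These are matches of letters only.

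Levels were taken as CPM of the counts summed over the cells of a library. In this assay each tagged transcript end is counted once and values are not divided by gene length, so levels are per molecule captured. *Cav1*, the caveolin needed to form caveolae in endothelium, was at 74.0 CPM in replicate 1 and 100.1 in replicate 2. *Cav2*, which joins CAV1 in mixed oligomers, was at 47.5 and 77.0 CPM. Both caveolins were thus among the lower members in each library.

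The cavins were higher. *Sdpr*, the cavin that bends membranes and is abundant in some endothelia, was at 185 CPM in replicate 1 and 378 in replicate 2. *Prkcdbp*, the cavin that binds protein kinase C delta, was at 118 and 395 CPM. *Ptrf*, the cavin required for the coat, was at 78.5 and 246 CPM.

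*Plvap*, the diaphragm protein, was the highest member in both libraries, at 235 CPM in replicate 1 and 1245 in replicate 2. *Ehd2*, the ATPase of the caveolar neck, was the lowest in both, at 28.5 and 44.7 CPM. By the mean of 2 libraries the order was *Plvap* (740 ± 715 CPM, SD, n = 2), *Sdpr* (282 ± 137), *Prkcdbp* (256 ± 196), *Ptrf* (162 ± 118), *Cav1* (87.05 ± 18.5), *Cav2* (62.2 ± 20.9) and *Ehd2* (36.6 ± 11.4). Across libraries the values of neighbours in this order overlapped, except for *Cav2* and *Ehd2*. Within each library the order was the same apart from *Sdpr* and *Prkcdbp*. *Sdpr* stood above *Prkcdbp* in replicate 1 and below it in replicate 2.

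All 7 members were higher in replicate 2, whereas 45.9% of the 3661 detected genes were. A gene was called detected when 50% or more of the cells of each library had a count, which 5 of the 7 members passed and *Cav2* and *Ehd2* did not. The ratio of replicate 2 to replicate 1 was 5.31 for *Plvap*, 3.34 for *Prkcdbp*, 3.13 for *Ptrf*, 2.05 for *Sdpr*, 1.62 for *Cav2*, 1.57 for *Ehd2* and 1.35 for *Cav1*. The detected genes had a median log2 ratio of -0.06. *Gja5* was also higher in replicate 2, at 615 against 126 CPM, and *Runx1* was lower, at 136 against 300.4 CPM. Library and make-up of the cells cannot be told apart with 1 library each.

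**Figure D1:**
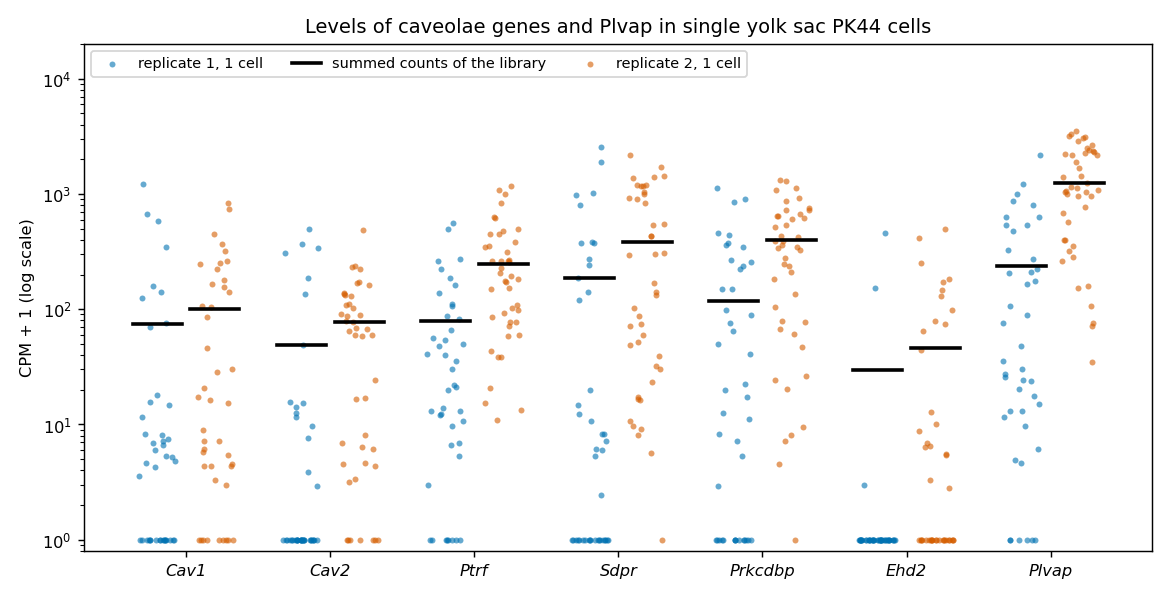
CPM + 1 of the 7 members on a log axis, with 1 point per cell (blue, replicate 1, 43 cells; orange, replicate 2, 44 cells) and a black bar at the CPM of the summed counts of the library. Cells without a count lie at the bottom, and all 44 cells of replicate 2 had *Plvap*.

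Levels of the members differed widely between single cells. *Sdpr* had 10 or more counts in 10 of 43 cells of replicate 1 (23.3%, exact Clopper-Pearson 95% interval 11.8 to 38.6%), and these 10 cells held 97.8% of its counts. In replicate 2 it had 10 or more counts in 32 of 44 cells (72.7%, 57.2 to 85.0%). Its CPM per cell had a lowest value, median and highest value of 0, 5.005 and 2560 in replicate 1 and of 0, 154 and 2184 in replicate 2. The highest cells were thus alike in both libraries, and the share of cells with *Sdpr* was larger in replicate 2. Intervals cover counting error only.

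*Cav1* was concentrated in few cells. It had 10 or more counts in 5 of 43 cells of replicate 1 (11.6%) and 18 of 44 of replicate 2 (40.9%), although 26 and 35 cells had at least 1 count. Its median was 4.27 CPM in replicate 1 and 14.9 in replicate 2, with highest cells of 1214 and 835 CPM. The 3 highest cells held 87.9% of its counts in replicate 1 and 57.5% in replicate 2. Its partner *Cav2* had 10 or more counts in 7 cells of replicate 1 and 23 of replicate 2, with medians of 0 and 61.5 CPM and highest values of 498 and 486 CPM.

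*Ptrf* and *Prkcdbp* were spread over more cells. *Ptrf* had 10 or more counts in 16 cells of replicate 1 and 37 of replicate 2, with medians of 21.2 and 188 CPM and highest cells of 556 and 1179 CPM. *Prkcdbp* had 10 or more in 19 and 35 cells, with medians of 19.0 and 343 CPM and highest cells of 1119 and 1328 CPM. *Ptrf* had a count in all 44 cells of replicate 2, the lowest at 9.92 CPM.

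*Plvap* was the most widespread member, with a count in 37 cells of replicate 1 and 44 of replicate 2. In replicate 1, 20 of 43 cells had 10 or more of its counts, and in replicate 2 all 44 did, where its CPM ran from 33.9 through a median of 1099 to 3492. In replicate 1 it ran from 0 through 34.4 to 2181 CPM. *Plvap* was at 625, 3.66 and 356 CPM in the 3 mesenchymal-marker cells. *Ehd2* was the rarest member, with 10 or more counts in 2 cells of replicate 1 and 10 of replicate 2, and 1 cell held 82.4% of its counts in replicate 1.

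The number of members with 10 or more counts in a cell had a median of 1 in replicate 1, where 12 cells had none, and of 5 in replicate 2, where 25 cells had 5 or more. All 7 reached this level in 1 cell of replicate 1 and in 4 of replicate 2. The cell of replicate 1 with all 7 had 793 CPM of *Sdpr*, 556 of *Ptrf*, 357 of *Prkcdbp*, 124 of *Cav1*, 48.1 of *Cav2*, 151 of *Ehd2* and 206 of *Plvap*. The same cell had 1205 CPM of *Gja5* and no count of *Runx1*. Thinned to 20000 counts per cell, *Sdpr* was still seen in 14 of 42 cells of replicate 1 and 33 of 44 of replicate 2, and *Cav1* in 12 and 18.

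Co-expression was measured as Spearman's rho of CPM across the cells of each library, in which cells share a library and differ in depth. Of the 21 pairs of members, 20 had a positive rho in replicate 1 (median 0.18, range -0.08 to 0.53) and 21 in replicate 2 (median 0.32, range 0.13 to 0.68). All pairs of detected genes had a median of 0.08 and 0.03. A total of 4 member pairs had a rho of 0.3 or more in both libraries, where 0.593% of pairs of detected genes did. Nothing is read from this difference, since co-expression was part of how the members were selected.

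The pair with the highest rho in replicate 1 was *Sdpr* and *Cav1*, a cavin and a caveolin, at 0.53, and at 0.58 in replicate 2. *Sdpr* and *Plvap* had 0.51 and 0.56. *Ptrf* and *Plvap* had 0.31 and 0.50, and *Prkcdbp* and *Plvap* had 0.33 and 0.45. *Plvap* was thus in 3 of the 4 pairs. The first of these pairs can be seen in single cells as well, since *Sdpr* had 10 or more counts in 4 of the 5 cells of replicate 1 with 10 or more *Cav1* counts and in 6 of the other 38. In replicate 2 it had them in 16 of 18 such cells and in 16 of the other 26.

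Other pairs differed between the libraries. *Sdpr* and *Ptrf*, both cavins, had a rho of 0.09 in replicate 1 and 0.68 in replicate 2, the highest of that library. *Ptrf* and *Cav1*, the core of the coat, had 0.09 and 0.60. All 18 cells of replicate 2 with 10 or more *Cav1* counts had 10 or more *Ptrf* counts, and 19 of the other 26 did. In replicate 1 the numbers were 3 of 5 and 13 of 38. The neighbours *Cav1* and *Cav2* had 0.03 and 0.32, and *Cav1* and *Ehd2* had -0.08 and 0.22. In all, 19 of 21 pairs had the higher rho in replicate 2, the deeper library. With the total counts held fixed (partial rho) 19 of 21 did as well, and with every cell at 20000 counts 14 of 21 did. At 20000 counts *Sdpr* and *Cav1* had 0.54 in replicate 1 and 0.50 in replicate 2.

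**Figure D2:**
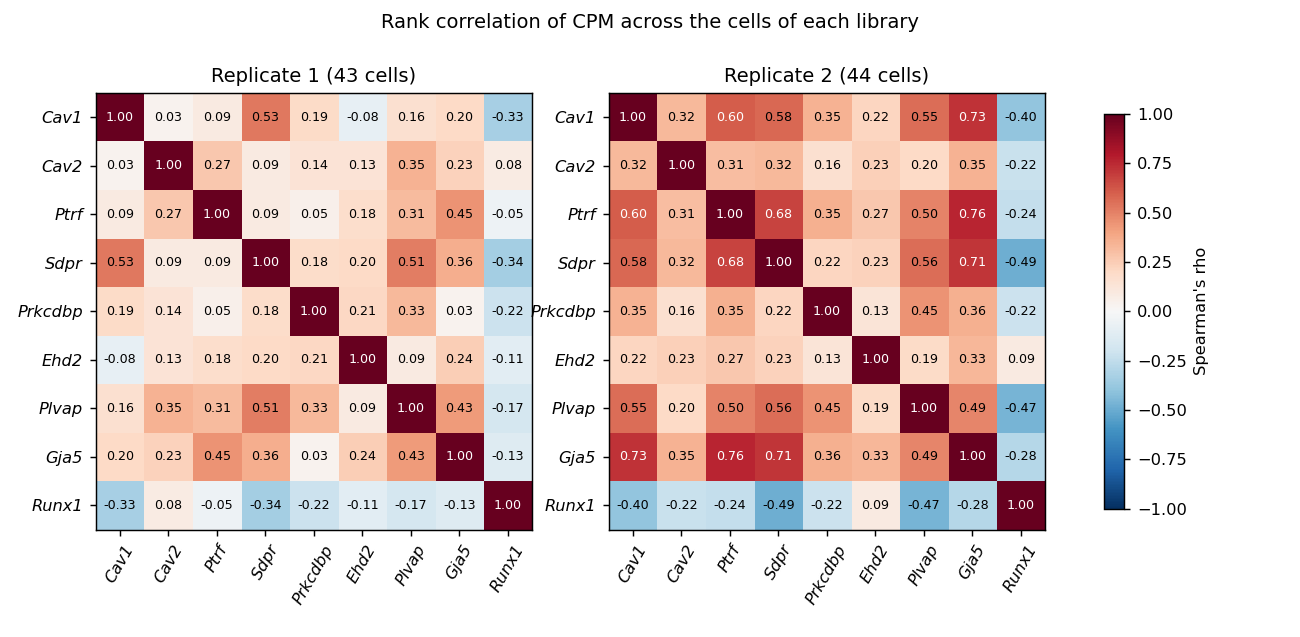
Spearman's rho of CPM across cells for the 7 members, *Gja5* and *Runx1* in replicate 1 (left, 43 cells) and replicate 2 (right, 44 cells), with red above 0 and blue below 0. *Sdpr*, *Cav1*, *Ptrf*, *Plvap* and *Gja5* form a red block in replicate 2, which is paler in replicate 1, and the *Runx1* row is mostly blue.

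The relation to *Runx1* was negative for 6 of 7 members in each library, with a median rho of -0.17 in replicate 1 and -0.24 in replicate 2. *Sdpr* had -0.34 and -0.49, and *Cav1* had -0.33 and -0.40. These were the 2 members at -0.3 or less in both libraries, against 0.546% of detected genes, a contrast the selection itself used. *Plvap* had -0.17 and -0.47, *Prkcdbp* -0.22 and -0.22, and *Ptrf* -0.05 and -0.24. *Cav2* changed sign, with 0.08 and -0.22, and so did *Ehd2*, with -0.11 and 0.09.

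*Cav1* and *Runx1* were rarely high in the same cell. *Cav1* had 10 or more counts in 1 of 22 cells of replicate 1 with 10 or more *Runx1* counts and in 4 of the other 21. In replicate 2 it had them in 1 of 17 such cells and in 17 of the other 27. *Runx1* itself had a rho of 0.34 and 0.35 with the total counts of the cell. At 20000 counts per cell *Sdpr* had a rho of -0.14 and -0.53 with *Runx1* and *Cav1* one of -0.19 and -0.62, so that neither kept -0.3 in replicate 1. *Prkcdbp* then had -0.34 and -0.34, *Cav2* -0.20 and -0.46 and *Ehd2* -0.23 and -0.20. At this depth all 7 members were below 0 in both libraries, so that the change of sign of *Cav2* and *Ehd2* was not seen. With the total counts held fixed (partial rho), both *Sdpr* and *Cav1* were at -0.3 or less in both libraries. The change of sign was kept in that setting, with 0.04 and -0.23 for *Cav2* and -0.25 and 0.06 for *Ehd2*.

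Each library was then split at its median *Runx1* CPM (52.2 in replicate 1 and 10.03 in replicate 2) into 21 *Runx1*-high and 22 *Runx1*-low cells of replicate 1 and 22 and 22 of replicate 2. In replicate 1, 7 cells lay within 1.5 times of the split value, and 5 in replicate 2. Cells with 10 or more *Runx1* counts made up 20 of the 21 *Runx1*-high cells in replicate 1 and 17 of 22 in replicate 2. *Runx1*-high cells were deeper. Their median total was 260240 counts, and 95376 for *Runx1*-low cells, in replicate 1, and the totals were 271734 and 213444 in replicate 2. All 3 mesenchymal-marker cells were *Runx1*-low. At 20000 counts per cell, and without the mesenchymal-marker cells, all 7 members were lower in the *Runx1*-high cells of both libraries.

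*Sdpr* was at 118 CPM in *Runx1*-high and 307 in *Runx1*-low cells of replicate 1, and at 116 and 769 CPM in replicate 2, so that it was 2.60-fold and 6.62-fold lower in the *Runx1*-high cells. *Cav1* was at 58.7 and 102 CPM in replicate 1 and at 29.2 and 206 CPM in replicate 2, 1.73-fold and 7.05-fold lower. Of the 338 *Cav1* counts of *Runx1*-high cells in replicate 1, most came from the 1 cell with 10 or more. *Plvap* was at 180 and 333 CPM in replicate 1 and at 761 and 1967 CPM in replicate 2, 1.85-fold and 2.59-fold lower.

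*Prkcdbp* was 2.27-fold lower in *Runx1*-high cells of replicate 1 and 1.71-fold lower in replicate 2, and *Cav2* 3.68-fold and 2.91-fold. *Ptrf* was 2.73-fold and 2.56-fold lower by summed counts. Its median per cell in replicate 1 went the other way, with 39.2 CPM in *Runx1*-high and 20.6 in *Runx1*-low cells, so that a few high cells set its sum. *Ehd2* had 1 count in *Runx1*-high and 254 in *Runx1*-low cells of replicate 1, the latter from 2 cells, and was at 19.7 and 81.9 CPM in replicate 2. The *Ehd2* median per cell in replicate 2 went the other way, with 3.35 CPM in *Runx1*-high and 0 in *Runx1*-low cells. By summed counts all 7 members were lower in the *Runx1*-high cells of both libraries, as were 26.4% of detected genes. The median log2 ratio over the members was -1.38 in replicate 1 and -1.54 in replicate 2 (-1.46 ± 0.12, SD, n = 2), beside 0.06 and 0.09 over all detected genes. Counting *Ehd2* of replicate 1 at a floor of 3 counts left the median at -1.38. It could not move, since *Ehd2* stayed the lowest of the 7 ratios.

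The relation to *Gja5* was positive for all 7 members in each library, with a median rho of 0.24 in replicate 1 and 0.49 in replicate 2. *Ptrf* had 0.45 and 0.76, *Sdpr* 0.36 and 0.71 and *Plvap* 0.43 and 0.49. These 3 members were at 0.3 or more in both libraries, against 1.72% of detected genes, which again was part of the selection. *Cav1* had 0.20 and 0.73, *Cav2* 0.23 and 0.35, *Ehd2* 0.24 and 0.33 and *Prkcdbp* 0.03 and 0.36. *Runx1* and *Gja5* had -0.13 and -0.28 with each other. *Gja5* itself had a rho of 0.24 and -0.19 with the total counts of the cell. At 20000 counts per cell 2 members, *Sdpr* and *Ptrf*, kept 0.3 with *Gja5* in both libraries. *Plvap* then had 0.25 in replicate 1 and 0.44 in replicate 2, and *Prkcdbp* had -0.03 and 0.35.

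*Sdpr* was most often high in cells with *Gja5*. In replicate 1 it had 10 or more counts in 8 of the 10 cells with 10 or more *Gja5* counts and in 2 of the other 33. In replicate 2 the numbers were 28 of 36 and 4 of 8. For *Cav1* the same numbers were 3 of 10 and 2 of 33 in replicate 1, and 17 of 36 and 1 of 8 in replicate 2. Most cells with high *Cav1* therefore had *Gja5*, and many cells with *Gja5* had little *Cav1*. For *Ehd2* they were 2 of 10 and 0 of 33 in replicate 1, and 9 of 36 and 1 of 8 in replicate 2.

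**Figure D3:**
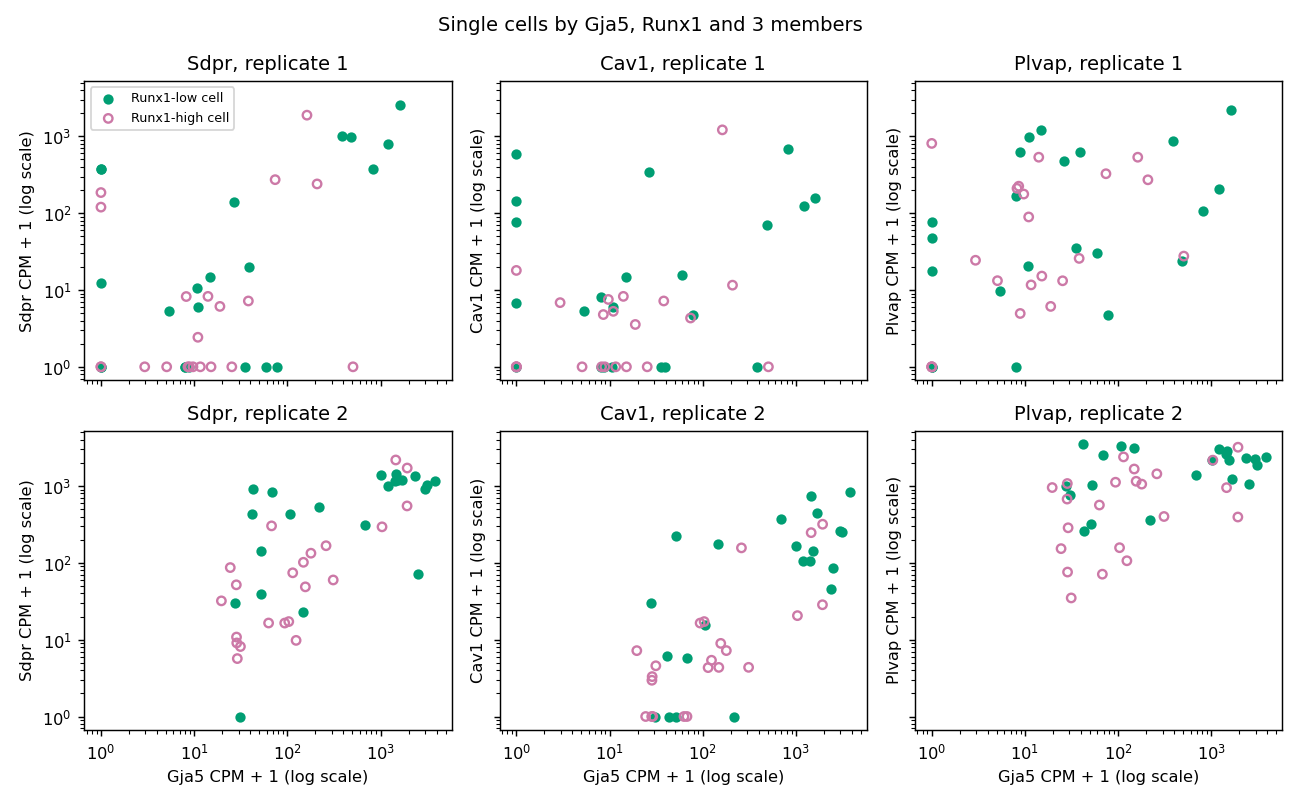
*Sdpr*, *Cav1* and *Plvap* (columns) against *Gja5*, as CPM + 1 on log axes, in the cells of replicate 1 (upper row) and replicate 2 (lower row), with *Runx1*-low cells filled green and *Runx1*-high cells as open pink circles. In replicate 2 *Sdpr* and *Cav1* rank with *Gja5* at a rho of 0.71 and 0.73, with single cells of high *Gja5* well below the others, and *Plvap* was above 0 in all 44 cells.

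Split at the median *Gja5* CPM (10.01 in replicate 1 and 147 in replicate 2), the classes held 21 and 22 cells in replicate 1 and 22 and 22 in replicate 2. In replicate 1, 14 cells lay within 1.5 times of the split value and 10 of the 21 *Gja5*-high cells had 10 or more *Gja5* counts, and 9 cells lay near the value in replicate 2. Of the 22 *Gja5*-low cells of replicate 2, 14 had 10 or more *Gja5* counts. Median *Gja5* per cell was 46.3 CPM in these *Gja5*-low cells and 58.3 in the *Gja5*-high cells of replicate 1. The classes were thus not alike between libraries. *Sdpr* was at 358 CPM in *Gja5*-high and 10.8 in *Gja5*-low cells of replicate 1 and at 646 and 120.0 CPM in replicate 2, 33.1-fold and 5.39-fold higher. *Cav1* was at 140.5 and 6.97 CPM in replicate 1 and at 187 and 16.7 CPM in replicate 2, 20.2-fold and 11.2-fold higher. In replicate 1 the *Cav1* ratio rested on few cells, since 4 of the 21 *Gja5*-high cells had 10 or more counts and the medians per cell were 6.196 and 4.031 CPM. The *Sdpr* medians there were 13.9 and 0 CPM, with 9 and 1 cells at 10 or more counts. By summed counts these 2 genes had the widest ratios of the members with more than 3 counts in each class.

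*Ptrf* was 3.41-fold higher in *Gja5*-high cells of replicate 1 and 3.77-fold higher in replicate 2, *Cav2* 3.73-fold and 2.93-fold, and *Plvap* 2.1-fold and 1.91-fold. *Prkcdbp* was at 119.5 and 116 CPM in replicate 1, which is 1.03-fold, and at 528 and 266 CPM in replicate 2. *Ehd2* had 254 counts and 1 count in replicate 1 and was at 69.0 and 21.3 CPM in replicate 2. All 7 members were higher in the *Gja5*-high cells of both libraries, as were 29.1% of detected genes, and with the mean of CPM per cell or at 20000 counts 6 were, without *Prkcdbp*. The median log2 ratio was 1.90 in replicate 1 and 1.69 in replicate 2 (1.80 ± 0.15, SD, n = 2), beside 0.02 and -0.03 over all detected genes. Counting *Ehd2* at the floor of 3 counts left the median of replicate 1 at 1.90, which could not move since *Ehd2* stayed the highest ratio.

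The splits by both genes were crossed, which gave 4 classes with 11, 10, 11 and 11 cells in replicate 1 and 13, 9, 9 and 13 in replicate 2. Of the 9 *Gja5*-high, *Runx1*-high cells of replicate 2, only 5 had 10 or more *Runx1* counts. In replicate 2 *Sdpr* was at 1014 CPM in *Gja5*-high, *Runx1*-low cells, 238 in *Gja5*-high, *Runx1*-high cells, 328 in *Gja5*-low, *Runx1*-low cells and 38.5 in *Gja5*-low, *Runx1*-high cells. In replicate 1 it was at 532, 241, 13.1 and 9.78 CPM in the same order. *Cav1* was at 292, 69.8, 50.4 and 3.44 CPM in replicate 2 and at 169, 122, 14.5 and 3.58 CPM in replicate 1. By summed counts of *Sdpr* and *Cav1*, the class with high *Gja5* and low *Runx1* was the highest and the class with the reverse the lowest in both libraries. The same held for *Cav2* and *Plvap*. In replicate 1 the order of the *Gja5*-low classes rested on few counts. *Sdpr* had 10 or more counts in 0 of 11 *Gja5*-low, *Runx1*-low cells and in 1 of 11 *Gja5*-low, *Runx1*-high cells. For *Cav1* these numbers were 1 and 0.

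*Plvap* had a narrower range, with 2063, 1181, 1795 and 495 CPM in replicate 2 and 405, 259, 241 and 111 CPM in replicate 1. By summed counts it was again lowest in *Gja5*-low, *Runx1*-high cells. Its median per cell in replicate 1 went the other way, with 23.4 CPM in these cells and 19.3 in *Gja5*-low, *Runx1*-low cells. There, 6 and 3 of the 11 cells of each class had 10 or more *Plvap* counts. *Ptrf* was higher in both *Gja5*-high classes than in either *Gja5*-low class, with 533, 237, 124 and 96.6 CPM in replicate 2 and 208, 62.8, 34.1 and 36.2 CPM in replicate 1. *Prkcdbp* was at 546, 508, 487 and 180.0 CPM in replicate 2, close to level in 3 classes, and at 213, 57.2, 148 and 102 CPM in replicate 1, where the lowest class was another. *Cav2* was at 154, 73.5, 77.9 and 24.5 CPM in replicate 2 and at 117, 46.5, 53.7 and 4.89 CPM in replicate 1. *Ehd2* was at 94.2, 41.0, 59.8 and 6.24 CPM in replicate 2, and in replicate 1 it was at 142 CPM in the first class, with 1 count over the other 3.

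**Figure D4:**
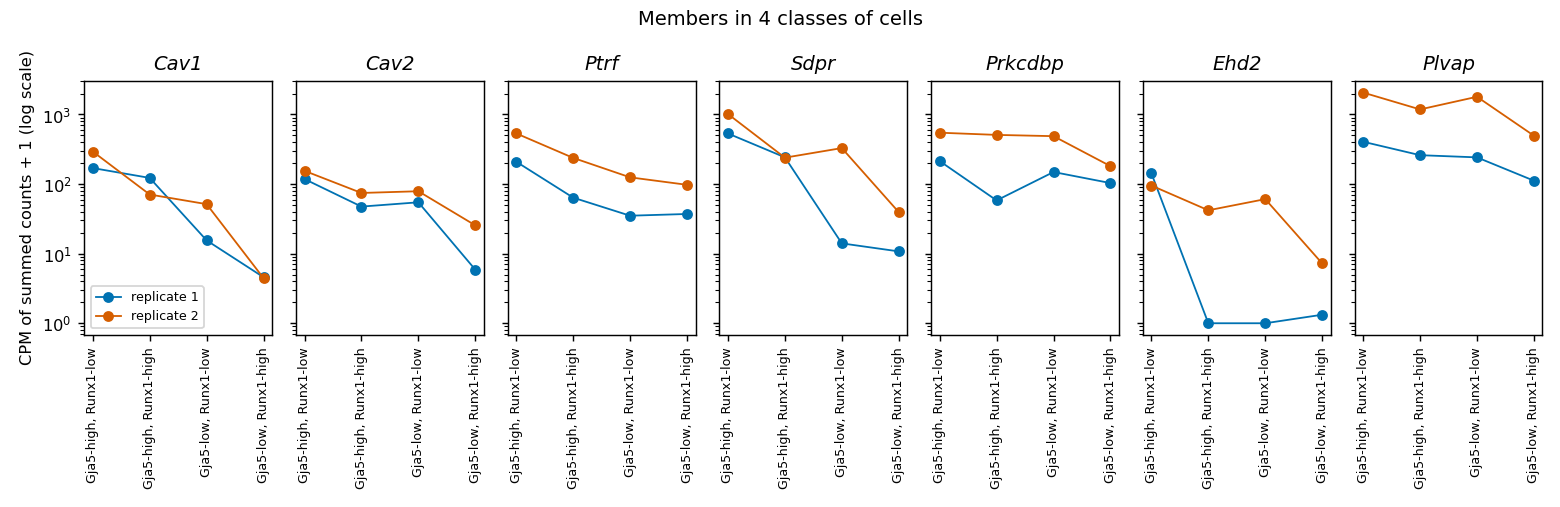
CPM + 1 of summed counts on a log axis for each member in 4 classes of cells made by the median splits on *Gja5* and *Runx1*, with blue for replicate 1, orange for replicate 2 and lines joining the classes of 1 library. In replicate 2 *Sdpr* and *Cav1* had the widest gap between the first class and the last, 1014 and 38.5 CPM for *Sdpr* and 292 and 3.44 CPM for *Cav1*.

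The 6 caveolae genes, without *Plvap*, were combined into a caveolae score, the mean rank of their CPM within a library. Among the 3656 detected genes that were not members, 2.24% had a rho of 0.3 or more with the score in both libraries and 0.985% had -0.3 or less. The genes most like the score by mean rho were *Igf2*, an embryonic growth factor (0.57 and 0.81), *Col18a1*, a basement membrane collagen (0.53 and 0.70), *Gja5* (0.42 and 0.81), *Ptprb*, an endothelial phosphatase (0.66 and 0.54), and *Clec14a*, an endothelial lectin (0.58 and 0.62). They were followed by *Acer2* (0.55 and 0.64), the angiopoietin receptor *Tek* (0.65 and 0.52), the basement membrane collagen *Col4a1* (0.59 and 0.58), *Nrp1* (0.38 and 0.79) and *Crip2* (0.51 and 0.63). The 5 genes at the other end were *Rpl21* (-0.63 and -0.40), *Serbp1* (-0.51 and -0.50), *Nmd3* (-0.53 and -0.41), *Rps18* (-0.49 and -0.45) and *Rpl23a* (-0.48 and -0.46). These include ribosomal protein genes and a ribosome export factor, *Nmd3*.

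The members had different nearest genes. *Clec14a* was nearest to *Sdpr* (0.62 and 0.71) and to *Plvap* (0.51 and 0.64), *Gja5* to *Ptrf* (0.45 and 0.76), *Igf2* to *Cav1* (0.43 and 0.70) and the junction gene *Esam* to *Prkcdbp* (0.55 and 0.45). *Cav2* was nearest to *Atf3* (0.50 and 0.42) and *Ehd2* to *Stt3b* (0.43 and 0.40), and these 2 members had counts in only 16 and 3 cells of replicate 1.

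Of 12 arterial genes listed, 7 were detected, and 6 of them had a rho of 0.3 or more with the caveolae score in both libraries, among them *Gja5*, on which the members were selected. Since the relation to *Gja5* and *Runx1* was part of the selection, nothing is read from the counts for the arterial and hematopoietic lists. *Gja4* had 0.36 and 0.74, *Epas1* 0.55 and 0.50, *Efnb2* 0.50 and 0.52 and *Dll4* 0.38 and 0.58. *Igfbp3*, the member of the list that did not pass, had 0.16 and 0.67. Of 13 pan-endothelial genes, 12 were detected and 8 passed, with a list median of 0.39 in replicate 1 and 0.43 in replicate 2. *Cdh5* had 0.48 and 0.52 and *Cldn5* 0.39 and 0.51, whereas *Emcn* had 0.17 and 0.04 and *Kdr* 0.48 and 0.21.

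Of 12 hematopoietic genes, 6 were detected and 0 had a rho of 0.3 or more with the score in both libraries, while 1, *Kit* (-0.48 and -0.38), had -0.3 or less. *Adgrg1* had -0.47 and -0.29 and *Runx1*, on which the members were selected, -0.23 and -0.38. The list median was -0.27 and -0.32. *Bcl11a* had -0.30 and -0.19 and *Neurl3* -0.06 and -0.35, so that 5 of the 6 were below 0 in both libraries. *Itga2b* changed sign, with -0.16 and 0.14. All detected genes had a median rho of -0.01 with the score in both libraries. Correlations across the cells of 1 library share its depth and composition and carry no p.

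**Figure D5:**
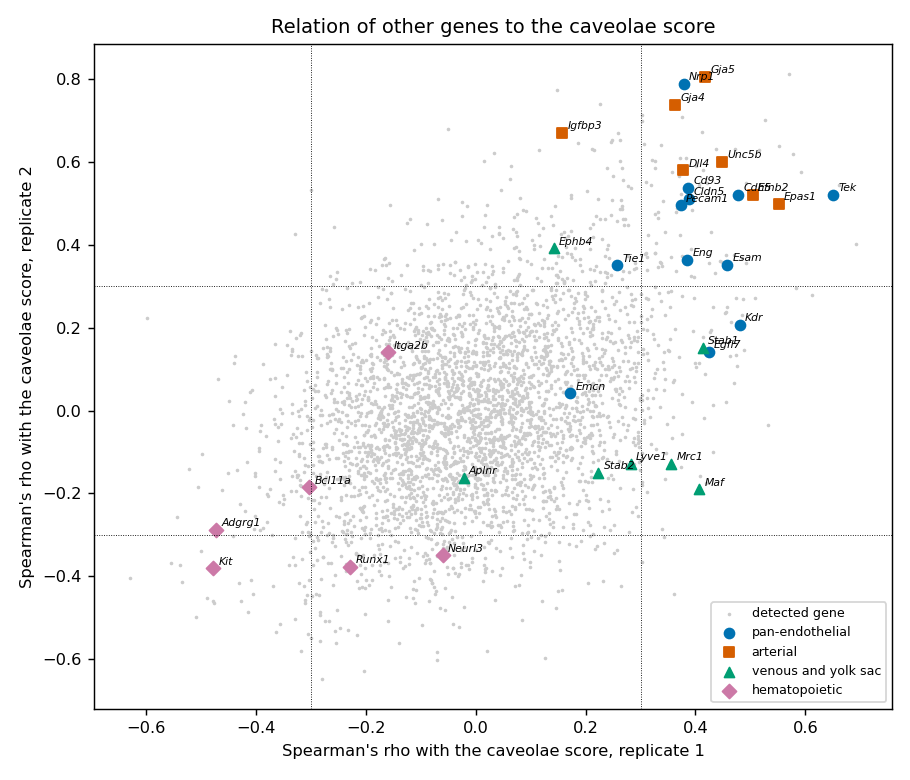
Spearman's rho of each detected gene with the caveolae score in replicate 1 (x axis) and replicate 2 (y axis), with detected genes in grey, the pan-endothelial list as blue circles, arterial as orange squares, venous and yolk sac as green triangles and hematopoietic as pink diamonds, and dotted lines at -0.3 and 0.3. The arterial genes lie in the upper right, all 7 above 0.3 in replicate 2, and *Kit* lies in the lower left.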

How the data were processed

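Single PK44 cells of the yolk sac were picked by mouth pipette and sequenced with a modified STRT-seq protocol with unique molecular identifiers. The authors deposited counts per gene and cell without normalization. According to the study's methods and the submitters' processing notes, reads were split by barcode, trimmed, aligned to mm10 with HISAT2 2.1.0, counted with HTSeq and freed of duplicates by identifier, and cells with 2000 or fewer genes, 10000 or fewer transcripts, over 1e+06 raw reads or over 10000 genes were removed. All 87 deposited cells were used, and no doublet caller was run.

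Counts were scaled to CPM per cell or per summed class in Python 3.11.15 with numpy 2.4.6, pandas 2.3.3 and scipy 1.17.1. Figures were drawn with matplotlib 3.10.9. Spearman's rho was computed within each library, and a gene or pair counted at 0.3 or more (or -0.3 or less) in both libraries. The rho step was tested on simulated data. With 1 condition and 2 libraries, no test between groups was made. Named genes were the 7 members, *Runx1*, *Gja5*, the 10 highest and 5 lowest genes by mean rho with the caveolae score, 1 nearest gene for each member and up to 4 examples per list, with further list genes chosen after their values were seen. The members and lists were chosen with earlier results of these data known. Alternatives were another scaling, thinning, partial rho, Pearson's r, other thresholds, other splits and leaving out a library, *Plvap* or the mesenchymal-marker cells. The deepest cell had 956593 counts and the shallowest 13218, and 3 counts, the limit that a count of 0 allows, are 0.336 CPM in replicate 1 and 0.236 in replicate 2. Promoters came from RefSeq on GRCm38.p6 and gene positions from GENCODE on GRCm38.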

Additional observations from a re-analysis of the deposited data

How the results depend on the processing

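Another scaling moved none of the counts of pairs or members (4, 2 and 3). At 20000 counts per cell, 7 member pairs passed in both libraries, and 1 member passed for *Runx1* and 2 for *Gja5*. At a threshold of 0.4, 2 pairs and 0 members for *Runx1* passed, and at 0.2, 6 members passed for *Gja5*. A single library gave 5 to 12 pairs and 3 to 7 members for *Gja5*, the higher values from replicate 2. The median log2 ratio of *Runx1*-high over *Runx1*-low cells was -1.19 at 20000 counts, -2.13 with the cells cut into 3 equal parts and the outer parts compared, -1.25 with the mean of CPM per cell and -1.61 without *Plvap*. That of *Gja5*-high over *Gja5*-low cells was 1.63, 3.34, 1.48 and 2.46 under the same settings, and 2.39 without the mesenchymal-marker cells. Members with no count in a class were left out of these medians. The causes of these moves were not tested. No median changed sign. The wider set of 8507 genes with a count in 5 cells of each library lowered the background for *Runx1* to 0.235%. Replicate 1, with fewer cells holding a count of each member, limits what can be said of single members there, above all *Ehd2*. No paired analysis was possible because there was 1 group.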

Other observations

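Of 14 other genes of caveolae and membrane bending, 6 were detected, and 0 had a rho of 0.3 or more, or of -0.3 or less, in both libraries. The EHD family members *Ehd4* (0.19 and 0.65) and *Ehd1* (0.15 and 0.27), the caveolar partner *Pacsin2* (0.03 and -0.0041) and the dynamin *Dnm2* (0.03 and 0.08) are examples. *Cav3*, the muscle caveolin, had 0 counts in both libraries, and *Murc*, the muscle cavin, had counts in 1 cell.

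Of 14 genes whose proteins are known to sit in or signal through endothelial caveolae, 7 were detected and 3 had a rho of 0.3 or more in both libraries, which were the water channel *Aqp1* (0.41 and 0.55), *Eng* (0.38 and 0.36) and *Acvrl1* (0.31 and 0.38). *Kdr* had 0.48 and 0.21 and *S1pr1* 0.47 and 0.11. Among all detected genes that were not members, 2.24% passed. *Eng* and *Kdr* are also in the pan-endothelial list, where 8 of 12 detected genes passed.

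Venous and yolk sac genes had a positive median rho with the score in replicate 1 and a negative one in replicate 2. Of 9 listed, 7 were detected and 0 passed in both libraries, with a list median of 0.28 in replicate 1 and -0.13 in replicate 2. *Lyve1* had 0.28 and -0.13, *Maf* 0.41 and -0.19, *Mrc1* 0.36 and -0.13 and *Stab2* 0.22 and -0.15. The other 3 detected genes had the same sign in both libraries, *Ephb4* with 0.14 and 0.39, *Stab1* with 0.41 and 0.15 and *Aplnr* with -0.02 and -0.16. With *Plvap* in place of the score, *Stab1* had 0.45 and 0.45 and *Lyve1* 0.38 and 0.09.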
